A study of Mus musculus with 2 samples.

Results

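Cyclic nucleotide phosphodiesterases, the enzymes that break down the second messengers cAMP and cGMP, were followed as 10 genes in the adrenal gland of the mouse. The genes were Pde2a, Pde3a, Pde3b, Pde4a, Pde4b, Pde4d, Pde7a, Pde8a, Pde8b and Pde11a, taken by symbol from 43346 mouse gene rows, together with their 76 transcripts. RNA came from C57BL/6J mice at 8 weeks of age, described in the labels as mixed-sex littermates with no treatment or modified allele named. Stranded libraries of poly(A) RNA, read as pairs of 76 nt, gave 1 group with 2 biological replicates and no contrast between conditions. The labels give the libraries separate biosamples but the same donor identifier and do not say how many animals each holds. The labels therefore do not settle whether the replicates are independent, and the spread of a gene between them may be biological or technical. Counts of Y-linked genes, given below, differed between the libraries.

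In the adrenal cortex, ACTH raises cAMP, and cAMP drives steroid synthesis through protein kinase A. Phosphodiesterases end that signal. PDE4, PDE7 and PDE8 enzymes act on cAMP alone, whereas PDE2, PDE3 and PDE11 enzymes act on both cAMP and cGMP. Loss of Pde8b raises corticosterone output in mice, variants of PDE8B and PDE11A are known from human adrenocortical hyperplasia, and PDE2 is known from the zona glomerulosa as an enzyme through which natriuretic peptides lower cAMP.

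The libraries held 48059863 expected counts in replicate 1 and 53294872 in replicate 2. Cortical, chromaffin, endothelial and adipose marker genes were measured together in these whole glands. The 8 cortex markers, Cyp21a1, Star and Nr5a1 among them, were each detected, and their summed TPM, the share of transcripts scaled for length to a fixed total, was 25049 in replicate 1 and 33475 in replicate 2. The Y-linked genes Ddx3y, Uty, Kdm5d and Eif2s3y had 26 to 221 counts in replicate 1 and 0 counts each in replicate 2. The counts of replicate 2 go against the label of mixed sex. Xist, expressed from the inactive X chromosome, was at 5.70 and 12.9 TPM. A difference between the libraries therefore cannot be told apart from one in sex composition.

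By whole-gene TPM, Pde8b and the table row taken as Pde2a stood above the other members. Pde8b, the high-affinity cAMP-specific enzyme (chromosome 13 of mm10, 95024454 to 95250336 on the minus strand), had 165 TPM in the first and 173 TPM in the second replicate, a mean of 169 ± 6.15 TPM (SD, n = 2, as for the means below). Of the 11718 protein-coding genes that reached 1 TPM in both libraries, 8.17% had a higher mean than Pde8b. Pde2a, the enzyme that cGMP stimulates, lies on the plus strand of chromosome 7, and its row (ENSMUSG00000030653) was at 84.3 and 111 TPM, a mean of 97.6 ± 18.8 TPM. That place rests on a transcript that the M21 annotation names Gm45837-201. The transcripts that M21 names Pde2a, at 101421691 to 101512827, came to 6.58 and 16.95 TPM, a mean of 11.8 ± 7.33 TPM. This mean lay below those of Pde7a, Pde3b, Pde4a and Pde8a. The ranges of the libraries overlapped with those of Pde3b, Pde4a and Pde8a, and lay apart from that of Pde7a alone. In a bulk sample, fewer cells of a type and less RNA per cell cannot be told apart.

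Pde7a, a cAMP-specific enzyme (chromosome 3, 19223108 to 19311322, minus strand), followed at 25.4 and 36.2 TPM. Pde3b, the cGMP-inhibited enzyme through which insulin restrains lipolysis in fat cells (chromosome 7, 114415281 to 114539251, plus strand), reached 31.8 TPM in replicate 1 against 9.31 TPM in replicate 2. Its mean of 20.6 ± 15.9 TPM therefore describes neither library. Pde4a (chromosome 9, 21165714 to 21213248, plus strand), one of the cAMP-specific enzymes inhibited by rolipram, was at 15.7 and 13.2 TPM, and Pde8a (chromosome 7, 81213596 to 81334533, plus strand), the other PDE8 gene, at 14.5 and 11.8 TPM. These levels lay near the median of 16.1 TPM for detected protein-coding genes.

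The other members were low. Pde4d (chromosome 13, 108449948 to 109953461, plus strand) was at 4.96 and 3.60 TPM. Pde3a, the form best known from heart and platelets (chromosome 6, 141249269 to 141507448, plus strand), was at 1.15 and 0.98 TPM, on either side of the detection limit of 1 TPM. Pde4b (chromosome 4, 102087543 to 102607259, plus strand) was at 0.48 and 0.61 TPM, from 61 and 81 counts. Pde11a (chromosome 2, 75989141 to 76338774, minus strand) had 4 counts in the first library and 0 in the other, where a count of 0 allows up to 3 counts. At this depth Pde11a was barely detectable. In all, 7 of 10 members reached 1 TPM in both libraries, against 54.6% of all protein-coding genes.

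**Figure D1:**
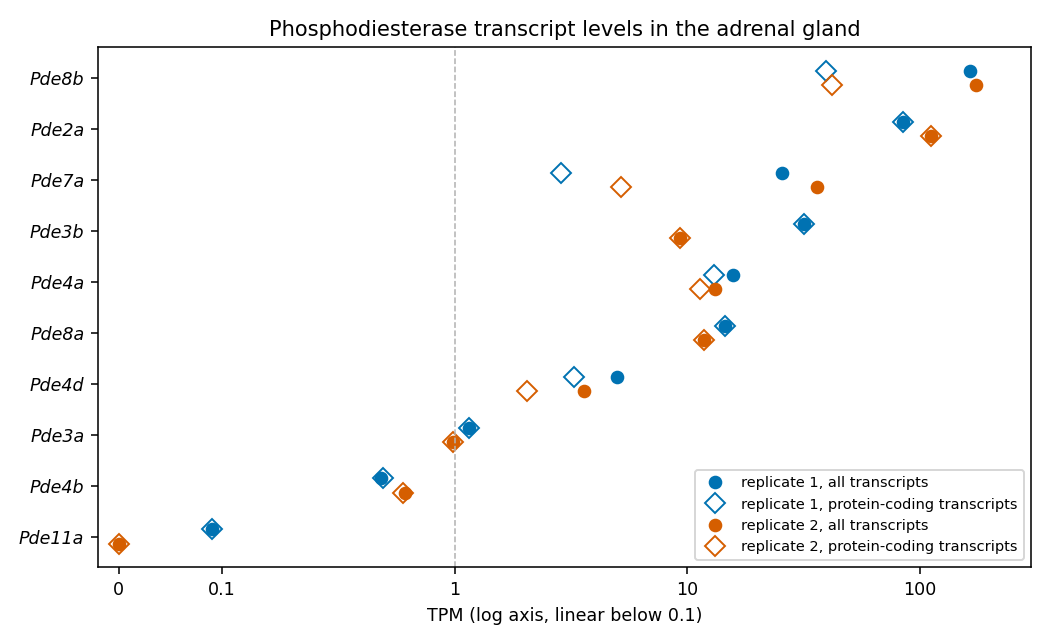
Level of each of the 10 phosphodiesterase genes in TPM (log axis, linear below 0.1), with filled circles for the whole gene, open diamonds for its protein-coding transcripts and a dashed line at 1 TPM. Pde8b leads by whole-gene TPM at 165 and 173, while its protein-coding transcripts lie at 39.4 and 41.7, below those of Pde2a at 84.3 and 111.

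When neighbours in the order of mean TPM were compared by the ranges of their libraries, 6 of 9 pairs did not overlap. Pde8b lay above Pde2a by a ratio of 1.95 in replicate 1 and 1.56 in replicate 2. The middle of the order was unresolved, since the ranges of Pde7a and Pde3b, of Pde3b and Pde4a, and of Pde4a and Pde8a overlapped. Within families, by whole-gene TPM, Pde8b exceeded Pde8a by 11.4 and 14.8 times, and Pde4a exceeded Pde4d by 3.16 and 3.67 times. With protein-coding transcripts alone, Pde8b was at 39.4 and 41.7 TPM beside Pde8a at 14.5 and 11.8 TPM. Pde3b exceeded Pde3a by 27.7 times in replicate 1 but by 9.50 times in replicate 2.

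Across the 21 genes for catalytic phosphodiesterase subunits, TPM summed to 374 in replicate 1 and 391 in replicate 2, of which the 10 members took 91.7% and 92.1%. The PDE8 family held 47.6% ± 0.378 and the Pde2a row 25.5% ± 4.12 of that sum. By substrate, the 8 cAMP-specific genes held 62.4% ± 0.559, the 8 genes for enzymes of both nucleotides 36.4% ± 0.309, and the 5 cGMP-specific genes 1.25% ± 0.250. Transcripts not annotated as coding made up 125 and 132 TPM of Pde8b and 22.5 and 31 TPM of Pde7a. They are part of the 232 and 245 TPM of the cAMP-specific class, whose share was not taken for coding transcripts alone. By expected counts, which are not scaled for length, the order of the classes turned. Genes for enzymes of both nucleotides then held 58.5% and 56.0%, and cAMP-specific genes 39.8% and 42.3%. The Pde2a row alone held 32.3% and 44.1% of the counts, ahead of Pde8b at 23.5% and 25.8%. Of its counts, 10849 and 14034 were those of Gm45837-201, against 921 and 2539 for the transcripts that M21 names Pde2a. The class order by counts depends on Gm45837-201.

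The transcript tables placed most of the TPM of Pde8b in 1 short RNA. Pde8b-209, annotated as a retained-intron transcript of 1338 bases, reached 124 TPM in replicate 1 and 131 in replicate 2, or 75.5% and 75.6% of the gene. It is annotated with 7 exons, against 21 in Pde8b-201, the coding form with the highest level, and 19 in Pde8b-208, a lower coding form. Its first 6 exons are those of Pde8b-208, and its last continues from the end of an exon shared with both through 209 bases of the intron (chromosome 13, 95090069 to 95090277). Pde7a had a like pattern. Pde7a-204, a retained-intron transcript of 670 bases with 3 exons against 13 in Pde7a-202, was at 20.8 and 27.4 TPM, or 82.1% and 75.6% of the gene, and ends after 84 bases of intron (chromosome 3, 19256694 to 19256777). The sequences below show where each short transcript parts from the coding forms. Pde8b-201 has 2 exons after this point that Pde8b-208 skips, so both junctions are given. Each is read 5′ to 3′ on the minus strand of mm10, with lower case for the last 30 bases of the shared exon and capitals for the 30 bases that follow, which are intronic in the short transcript and those of the next exon in the coding ones.
Pde8b-209 (chr13:95090248-95090307): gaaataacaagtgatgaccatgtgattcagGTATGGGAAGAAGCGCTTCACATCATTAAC
Pde8b-201, spliced: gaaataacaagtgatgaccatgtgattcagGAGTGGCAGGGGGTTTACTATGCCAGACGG
Pde8b-208, spliced: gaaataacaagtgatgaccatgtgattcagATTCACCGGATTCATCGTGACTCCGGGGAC
Pde7a-204 (chr3:19256748-19256807): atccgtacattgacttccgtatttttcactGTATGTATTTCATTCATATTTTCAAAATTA
Pde7a-202, spliced: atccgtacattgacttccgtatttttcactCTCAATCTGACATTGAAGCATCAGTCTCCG

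Both intronic runs open with GT, the letters at which an intron begins. In Pde8b-201, 876 of 2514 coding bases (34.8%) lie before this point, and in Pde8b-208 876 of 2364 (37.1%), while reading on in frame into the intron meets a TAG stop that begins at base 163 of the extension. In Pde7a-202, 283 of 1446 coding bases (19.6%) lie before it, and a TAG begins at base 54. The catalytic domain of phosphodiesterases lies toward the C-terminal end of the protein. The polyadenylation hexamer AATAAA starts 31 bases before the end of Pde8b-209, while neither AATAAA nor ATTAAA occurs in the last 50 bases of Pde7a-204. Among annotated retained-intron transcripts 17.3% hold AATAAA in their last 50 bases, and among protein-coding transcripts 40.7%.

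**Figure D2:**
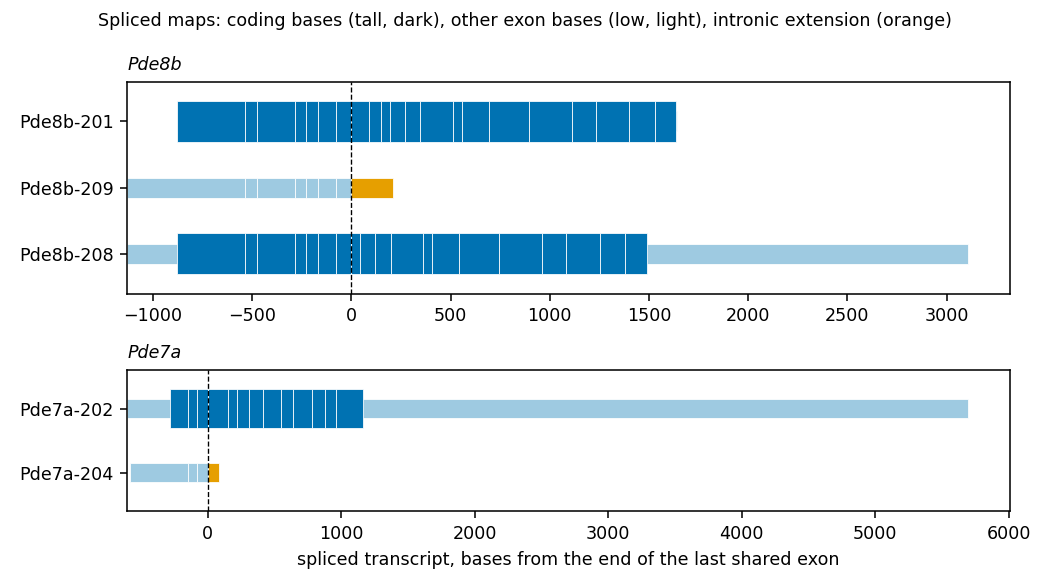
Spliced maps of the leading transcripts of Pde8b and Pde7a, in bases from the end of the last exon shared with the short form (dashed line), with coding bases tall and dark, other exon bases low and light, and the intronic extension orange. Pde8b-209 ends 209 bases and Pde7a-204 ends 84 bases past the shared exon, with most of the coding sequence of the coding forms to the right of the line.

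With protein-coding transcripts alone, the order of the members changed. The Pde2a row led at 97.6 ± 18.8 TPM, since its 3 transcripts, Gm45837-201 among them, are annotated as coding, and Pde8b followed at 40.5 ± 1.63 TPM. By TPM, Pde8b-201 was the highest coding form of Pde8b, at 20.03 and 27.5 TPM, with Pde8b-208 at 8.76 and 8.19 TPM. By expected counts they were nearer, at 1617 and 2377 against 1231 and 1232.5. The annotated Pde8b-201 has 2514 coding bases in 2517, and Pde8b-208 has 2364 in 4235. Another coding form, Pde8b-204, was at 6.51 TPM from 492 counts in replicate 1 but at 0.49 TPM from 40.1 counts in replicate 2. Pde7a fell from the third to the sixth place, with coding transcripts at 2.85 and 5.19 TPM, nearly all of it Pde7a-202. Of the 9 neighbouring pairs in this order 6 did not overlap, and those that did were Pde3b and Pde8a, Pde8a and Pde4a, and Pde7a and Pde4d.

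The share in transcripts not annotated as coding depended on the scale. Coding transcripts held 23.9% and 24.0% of the TPM of Pde8b but 42.2% and 42.1% of its expected counts, because TPM gives more weight per count to a shorter transcript. For Pde7a they held 11.2% and 14.3% of TPM but 60.4% and 65.1% of counts. Among 11670 detected protein-coding genes the median TPM share of such transcripts was 0%, and 1560 (13.4%) had over 50% in them in both libraries. As large a mean share as that of Pde8b was seen in 7.04% of these genes, and as large a share as that of Pde7a in 3.73%. The split of reads between overlapping transcripts is the authors' estimate, and the credibility bounds of Pde8b-209 in replicate 1 were 118 to 128 TPM.

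**Figure D3:**
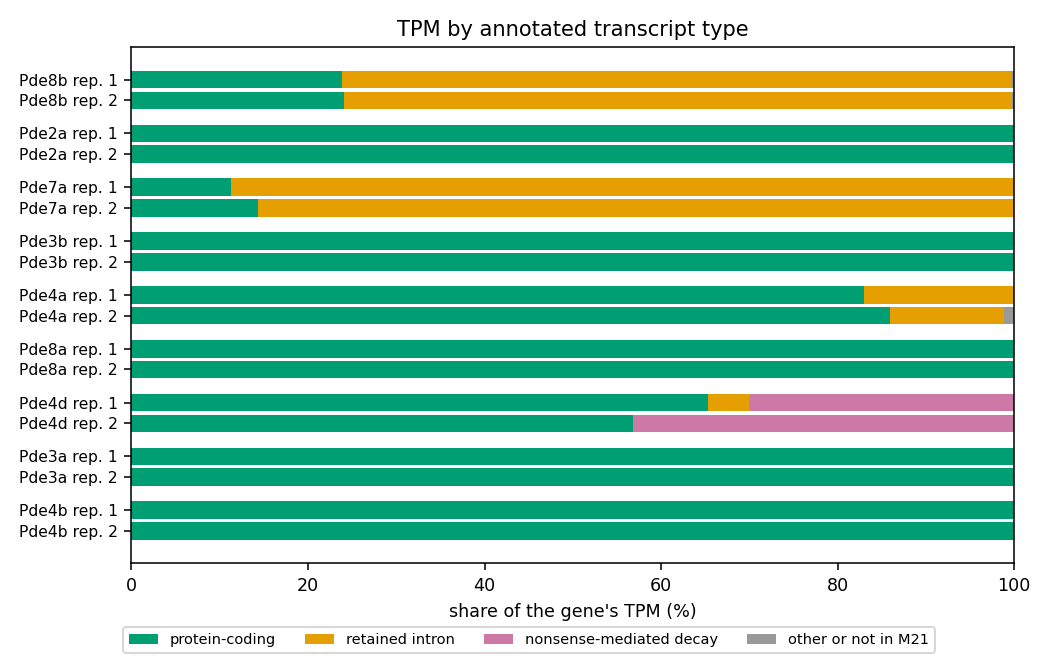
Share of each gene's TPM (%) by the annotated type of transcript, with 1 bar for each library and Pde11a left out for its 4 counts. Pde8b and Pde7a show a coding share of 23.9% and 24.0%, and of 11.2% and 14.3%. The rows used for Pde2a, Pde3b, Pde8a, Pde3a and Pde4b are coding throughout.

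The rows used for Pde3b, Pde8a and Pde3a each had a single transcript with TPM above 0, so their gene level is the level of 1 coding form. Pde3a-202, a retained-intron transcript in M21 with 7 counts in each library, was not part of the Pde3a row. The row taken as Pde2a carries the name Gm45837 in M21, and its 3 transcripts map to the NCBI gene of Pde2a. Gm45837-201 shares 28 of the 31 exons of Pde2a-201. M21 starts it at 101410886, upstream of the transcripts named Pde2a, but gives it 4139 bases against 4208 in the deposited tables. It held 92.2% and 84.7% of the row, at 77.7 and 93.9 TPM. Pde2a-201 was at 6.58 and 16.9 TPM. The leading transcript was the same in both libraries for 7 of 10 members. Pde11a had none in replicate 2, and the exceptions among the others were Pde4a and Pde4d.

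The PDE4 genes are known for several promoters, which give long and short enzymes with different N-terminal regions. Annotated starts within 500 bases of each other were joined into groups. Where the RNAs begin was not measured, so the TPM of a group rests on the authors' split of reads between overlapping transcripts. Most of the Pde4a TPM was assigned to 2 groups. The first start (chromosome 9, 21165714), that of Pde4a-202, held 6.09 and 5.73 TPM, and the start 18.4 kb downstream (21184101), mainly that of Pde4a-203, held 6.21 and 5.28 TPM. Their shares, 41.2% ± 3.22 and 39.8% ± 0.265, could not be ranked, and Pde4a-203 led narrowly in replicate 1 while Pde4a-202 led in replicate 2. A start between them (21181616), that of the retained-intron transcript Pde4a-204, held 2.58 and 1.62 TPM, and the last start (21196705), that of the short Pde4a-201, held 0.78 and 0.41 TPM.

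Pde4d starts are spread over a long stretch of chromosome 13, and most of the TPM was assigned to transcripts that start toward their downstream end. The group at 109903102 to 109903106, 1453 kb from the first start, held 3.55 TPM (71.6%) in replicate 1 and 2.42 TPM (67.4%) in replicate 2. It serves the coding Pde4d-207 and Pde4d-206, which is annotated for nonsense-mediated decay, the pathway that destroys RNA with an early stop. Pde4d-207 was at 2.06 and 0.87 TPM and Pde4d-206 at 1.49 and 1.55 TPM, so that the lead changed between the libraries. Pde4d-201, 1236 kb from the first start, was at 0.93 and 0.38 TPM. Pde4d-218, 811 kb from it, had 3.68 counts in replicate 1 against 50.1 in replicate 2. In Pde4b a group of starts 167 kb from the first, that of Pde4b-207, held 69.7% ± 0.433 of the TPM, and Pde4b-203, 483 kb from the first, held 25.8% ± 1.08, both from few counts.

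**Figure D4:**
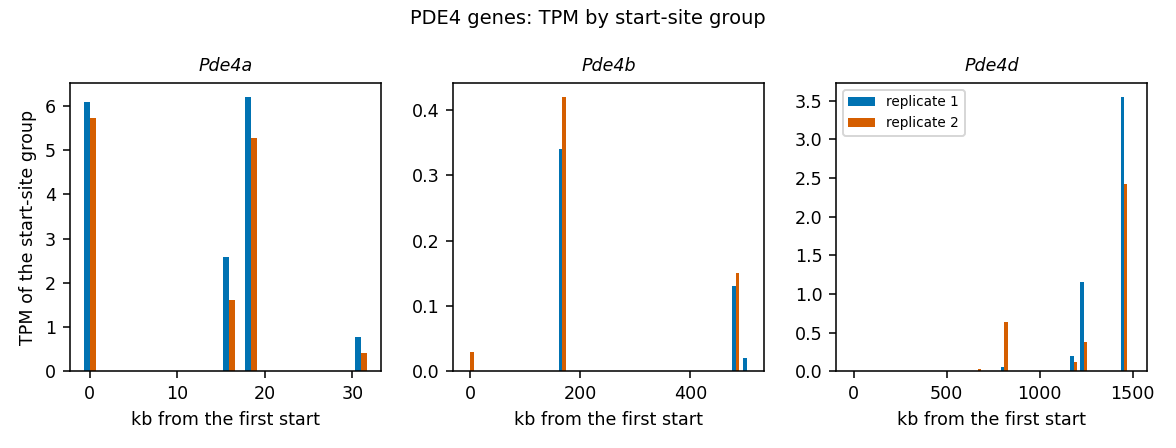
TPM of the start-site groups of Pde4a, Pde4b and Pde4d by distance in kb from the gene's first annotated start, with 1 bar for each library. Pde4a has its highest bars at 0 and 18.4 kb, Pde4b at 167 kb and Pde4d at 1453 kb.

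Pde8b has a pair of main start groups 26.8 kb apart, and the downstream one (chromosome 13, 95222813 to 95223555) held 97.7% ± 0.622 of the TPM, at 162 and 169 TPM. The upstream group (95250274 to 95250336) held 2.12 and 4.19 TPM. Windows of 250 bases before the starts, taken from RefSeq on GRCm38.p6, are shown for a start of each Pde8b group and for the main Pde4a starts. They set the Pde8b start with more assigned TPM beside that with less. In the Pde8b windows capitals mark CG steps, and in the Pde4a windows they mark CGTCA, the reverse complement of TGACG. Each is read 5′ to 3′ on the gene's strand, minus for Pde8b and plus for Pde4a.
Pde8b downstream start (chr13:95223093-95223342): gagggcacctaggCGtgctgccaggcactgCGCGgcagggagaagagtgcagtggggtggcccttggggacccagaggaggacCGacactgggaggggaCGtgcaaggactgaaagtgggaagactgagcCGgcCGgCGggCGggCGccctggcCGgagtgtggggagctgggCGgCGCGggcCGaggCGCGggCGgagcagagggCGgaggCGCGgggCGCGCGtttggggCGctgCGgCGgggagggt
Pde8b upstream start (chr13:95250337-95250586): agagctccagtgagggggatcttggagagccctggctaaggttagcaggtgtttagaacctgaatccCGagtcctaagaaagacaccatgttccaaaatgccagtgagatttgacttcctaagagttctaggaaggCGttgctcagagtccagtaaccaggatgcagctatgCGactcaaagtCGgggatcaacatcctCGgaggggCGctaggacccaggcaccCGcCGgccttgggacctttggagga
Pde4a first start (chr9:21165464-21165713): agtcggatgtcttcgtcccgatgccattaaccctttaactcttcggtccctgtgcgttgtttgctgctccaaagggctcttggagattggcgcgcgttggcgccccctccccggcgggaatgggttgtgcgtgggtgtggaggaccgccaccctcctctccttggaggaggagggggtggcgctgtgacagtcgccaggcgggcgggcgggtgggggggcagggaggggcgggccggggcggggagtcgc
Pde4a downstream start (chr9:21183851-21184100): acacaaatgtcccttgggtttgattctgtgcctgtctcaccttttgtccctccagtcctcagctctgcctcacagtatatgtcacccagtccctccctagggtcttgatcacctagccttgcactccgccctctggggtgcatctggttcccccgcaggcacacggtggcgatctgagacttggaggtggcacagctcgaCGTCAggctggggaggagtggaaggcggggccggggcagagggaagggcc

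The window of the downstream Pde8b start held 27 CG steps and 75.6% G or C, against 8 CG steps and 54.4% for the upstream start. Over all 32851 promoter windows the medians were 6 steps and 52.4%, and 8.56% held at least 27 steps. RefSeq entries were matched for 7 members, with 20 windows in all, and Pde3a, Pde3b and Pde7a had none. The Pde8b windows overlap within each start group, so the 20 are not separate promoters. No window lay at the starts of Pde4b-207 or Pde4d-207, the coding transcripts of the main groups. None of the 20 lay at 101410886, where M21 starts Gm45837-201, the leading transcript of the Pde2a row. The cAMP response element TGACGTCA, searched on both strands, occurred in 0 of the 20 and in 1.55% of all windows. TGACG, which is contained in that element, occurred in 3 of 20 (15%) and in 17.8% of all windows. The 3 were those of the downstream Pde4a start, a Pde4b start at 102421555 and a Pde8a start. The transcript matched to that Pde4b start, Pde4b-205, had 0 counts in each library. CAAGGTCA, a site of the steroidogenic factor NR5A1, occurred in 0 of the 20 and in 1.33% of all windows. At shares this low over all windows, 0 of 20 does not set the members apart.

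Levels of the members were then compared between the libraries. A two-sided exact binomial test on scaled counts was run over the 15824 genes whose counts summed to 20 or more, and a gene was called at a Benjamini-Hochberg adjusted p under 0.05 with at least a 2-fold difference. It compares the reads of these libraries, not conditions. Pde3b was the single member called of 9 tested, against 6.79% of all genes, with 4.27% called higher in replicate 1 and 2.52% in replicate 2. The calls numbered 676 higher in replicate 1 and 399 in replicate 2, and 286 and 1290 when spike-in scaling moved the median log2 ratio by -0.43. Counts of Pde3b were 7059 in replicate 1 against 2208 in replicate 2, a 3.54-fold difference, with a log2 ratio of replicate 1 over replicate 2 of 1.82 (exact Clopper-Pearson 95% interval 1.76 to 1.89, counting error only, as for the ratios below). Of all tested genes 2.11% had a ratio at least that far from 0 in either direction, and the median distance from 0 was 0.26.

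By adjusted p alone 7 members passed, against 57.8% of all tested genes, 5 of them higher in replicate 1 (29.0% of all) and 2 in replicate 2 (28.8%). Beside Pde3b, those higher in replicate 1 were Pde4d with a log2 ratio of 0.68 (0.47 to 0.88), Pde8a with 0.35 (0.25 to 0.45), Pde4a with 0.28 (0.19 to 0.38) and Pde3a with 0.28 (0.08 to 0.49). The directions of Pde8a, Pde4a and Pde3a turned when the libraries were scaled to spike-in counts. Pde7a was higher in replicate 2, with a log2 ratio of -0.67 (-0.78 to -0.56), as was the Pde2a row with -0.35 (-0.38 to -0.31). The transcripts that M21 names Pde2a had 921 counts in replicate 1 and 2539 in replicate 2, and were not tested apart from Gm45837-201. The test was not passed by Pde8b, whose ratio was -0.03 (-0.07 to 0.01), or by Pde4b, whose ratio was -0.26 (-0.77 to 0.24). Over the 9 members tested the median log2 ratio was 0.28, beside -0.0045 over all genes.

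Adipocyte markers moved in the direction of Pde3b. All 8 listed were detected, and their summed TPM was 13662 in replicate 1 and 6185 in replicate 2. By adjusted p 7 were higher in replicate 1, with log2 ratios from 0.33 for Lipe to 1.34 for Cfd, whereas Lep was lower at -0.56. The ratio of Pde3b lay above each of the 8. Pde3b over Adipoq, the fat cell hormone adiponectin, was 0.132 in replicate 1 and 0.0677 in replicate 2. Neuron markers were also higher in replicate 1, with a summed TPM of 20.03 and 7.46. Past 2-fold were 5 of 6, beside 4.27% of all tested genes. By adjusted p, 6 of 6 endothelial and 4 of 5 glia markers were higher in replicate 1 too, beside 29.0% of all tested genes. The cortex markers moved the other way, with 8 of 8 higher in replicate 2 by adjusted p and a median log2 ratio of -0.46. So did 5 of 5 erythroid and 4 of 6 glomerulosa markers, beside 28.8% of all tested genes. The part of any of these cell types in the difference of Pde3b was not tested.

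**Figure D5:**
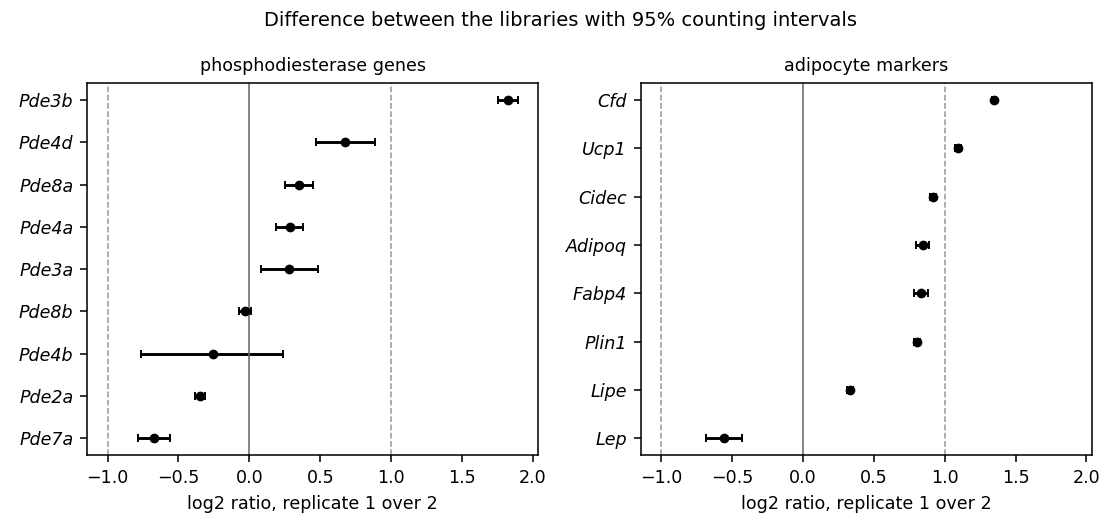
Log2 ratio of replicate 1 over replicate 2 for the 9 phosphodiesterase genes tested (left) and 8 adipocyte markers (right), with exact 95% counting intervals and dashed lines at a 2-fold difference. Pde3b at 1.82 lies past the 2-fold line and above Cfd, the highest marker at 1.34, and Pde8b lies at -0.03.

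Of the other 14 phosphodiesterase genes, 8 were detected. Pde10a, which acts on both nucleotides, was at 13.3 and 15.4 TPM, sixth among the 24 listed, and Pde6d, which codes for a prenyl-binding subunit with no catalytic activity, was at 12.9 and 10.1 TPM. Pde7b was next at 3.37 and 3.48 TPM, so Pde7a exceeded it by 7.53 and 10.4 times in whole-gene TPM. The coding transcripts of Pde7a alone were at 2.85 and 5.19 TPM. The rod and cone genes Pde6b, Pde6c and Pde6h had 0 counts in both libraries. Of the 9 tested, 5 were higher in replicate 1 by adjusted p, 4 did not pass and 0 were past 2-fold, with a median log2 ratio of 0.16.

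Of 14 matched genes for proteins known to bind or anchor phosphodiesterases, 11 were detected, against 54.6% of all protein-coding genes. Rack1, a scaffold of PDE4D, was at 1370 and 1380 TPM, and Ndel1, a cytoskeletal partner of PDE4, at 156 and 184 TPM. By adjusted p 5 of the 14 were higher in replicate 1 and 4 in replicate 2, beside 29.0% and 28.8% of all tested genes, and 5 did not pass. None was past 2-fold, and the median log2 ratio was 0.06. In the list for cGMP synthesis and response 7 of 13 were detected. Npr1, the receptor of atrial natriuretic peptide, was at 437 and 364 TPM, the C-type natriuretic peptide receptor gene Npr2 at 38.2 and 33.8 TPM, and the endothelial nitric oxide synthase gene Nos3 at 33.3 and 21.9 TPM. Of 12 tested, 7 were higher in replicate 1 and 2 in replicate 2 by adjusted p (median log2 ratio 0.33), and Gucy1b2, a guanylyl cyclase subunit gene with 10 and 40 counts, passed 2-fold.

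Of 13 genes for cAMP effectors outside protein kinase A, 6 were detected. Rapgef4 and Rapgef3, which code for the cAMP-activated exchange factors EPAC2 and EPAC1, were at 80.7 and 137 TPM and at 52.7 and 44.2 TPM. The channel gene Hcn3 was at 20.95 and 34.2 TPM. Of 9 tested, 4 were higher in replicate 1 and 3 in replicate 2 by adjusted p (median log2 ratio 0.26).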

How the data were processed

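Poly(A) RNA of mouse adrenal gland was measured in 2 libraries of 1 group, with replicate numbers from the labels. Per the file headers, the deposited gene and transcript tables hold an expected count, not normalized and fractional where the authors split reads between loci. The authors' TPM is scaled for length to a fixed total and the authors' FPKM for length and fragments. The deposited percent is a transcript's share of its gene. Alignments were to the mm10 transcriptome with annotation M4, per the deposited readme files. No aligner or quantifier is given in the sources used here. Names, transcript types and positions came from GENCODE M21 on the same assembly, matching 9 members by gene identifier and Pde2a through its transcripts. Of the 76 transcripts, 75 had an M21 entry and 72 a length within 2 bases of it. The others were not placed on a start. The deposited mm9 contig and junction tables were not used here.

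Expected counts were rounded and scaled with TMM factors (edgeR 4.0.16, R 4.3.3), which put the effective size of replicate 2 at 1.11 times that of replicate 1. The exact binomial test was run in scipy 1.17.1 with Benjamini-Hochberg adjustment and tested on simulated data. Log2 ratios used a prior count of 0.5. Spike-ins stayed out of library sizes and tests. Reads copied by PCR are not independent molecules, so intervals and limits speak for counting error alone.

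The members and the gene lists were chosen with earlier results of these data known. The named genes are the 10 members and, in each further list, the 3 with the highest mean TPM and any past 2-fold, except for genes that are not reported here. Of the transcripts, the leading one of each library and any with at least 10% of the gene in both are named, and the few others were chosen after their values were seen. Alternatives changed the scaling (DESeq2 1.42.0 size factors, library totals, spike-ins), the count minimum, the fold, the test, the pseudocount on TPM, the detection limit and the start grouping, and left out each replicate. Counting coding transcripts alone, and Pde2a-named transcripts alone, were added after seeing the data.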

Additional observations from a re-analysis of the deposited data

How the results depend on the processing

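No paired analysis was possible because the design has 1 group and no comparison between groups. Scaling to spike-in counts moved the median log2 ratio of all genes by -0.43. Under it Pde3a (-0.15), Pde4a (-0.15) and Pde8a (-0.081) changed sign and Pde7a passed 2-fold at -1.10, so that 2 members were called in place of 1. Over all genes 286 calls then lay in the direction of replicate 1 and 1290 in that of replicate 2, 1576 in all, against 676 and 399, or 1075 in all. Without a minimum fold 7 members and 9139 genes were called, and with 1.5-fold 3 members and 2456 genes. A count minimum of 100 gave 466 genes, edgeR's exact test with its biological coefficient of variation set to 0.2 gave 244, and a fold of TPM plus 1 with no test 364. The summed TPM of the members was 351, from 343 to 360 when 1 library was left out, and 192 with coding transcripts alone. As CPM, not scaled for length, it was 672. The members detected numbered 7 to 8 when 1 library was left out. Pde3b was called under each of the 12 alternatives of the comparison, with log2 ratios from 1.39 to 1.83. The 1.5-fold alternative and that without a minimum fold only loosened the rule, and coding-only counting left the counts of Pde3b unchanged. Those alternatives could not undo its call. Pde4b was at 0.90 TPM by the authors' posterior mean, and Pde2a at 11.8 TPM from the transcripts that M21 names Pde2a. The cause of these changes was not tested, except that coding-only sums leave out transcripts by construction.

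Depth limits Pde11a and Pde4b, with at most 4 and 81 counts in a library. Transcript shares rest on the authors' split of reads.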
